A study of Rattus norvegicus with 13 samples.

Results

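The genes described here encode the contractile apparatus, the calcium machinery and the energy supply of mature skeletal muscle fibres. A list of 45 such genes was chosen with earlier results of the day 3 comparison known, and 40 of them were found by symbol among the 28357 named genes of the day 3 files. Of these 40, 39 passed the filter on low counts and 1, Myot, was listed at 0 in every library. No value for Myh1, Myh4, Myh13, Ttn or Tcap was analysed here. Because the day 3 contrast was used to choose the list, its differences between treatments are given as a description, without a test.

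RNA was sequenced from the rim of the cornea and the limbus with adjoining sclera of wild-type rats, which were Lewis males 2 months old. The series describes its rats as modelling limbal stem cell deficiency and corneal neovascularization, the growth of vessels into the cornea. The 3 spironolactone libraries came from animals given 25 mg/kg/day systemically, by daily injection under the skin for 3 days per the protocol. Spironolactone blocks the mineralocorticoid receptor. The 3 vehicle libraries came from animals given 90% olive oil with 10% DMSO. All 6 were labelled day 3 and shared strain, sex, age and the corneal model. Whether each library came from its own animal is not said in the labels, and p-values therefore measure only the spread between these libraries, which may be technical. The day 7 libraries were not analysed here, because the sources used do not pair their gene IDs with names.

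A muscle fibre shortens when myosin heads pull on actin filaments. Troponin on the thin filament opens the actin when calcium leaves its store, and the Z disc and M band hold both filament systems in register. Slow, fast and extraocular fibres use different genes for the same parts: Myh7 encodes the slow myosin heavy chain, Myh2 a fast one, and Myh15 a myosin known from the muscles that move the eye. Those muscles insert on the sclera behind the limbus. In bulk tissue, fewer muscle fibres, less RNA per fibre and an unequal amount of eye muscle left on the dissected piece cannot be told apart. The amount of muscle carried over in each library was not tested.

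The libraries held 18.1 to 25.3 M estimated counts each. Epithelial and stromal markers of the labelled tissue were present: the summed level of 8 corneal epithelial genes was 14305 to 17033 TPM (the authors' level per transcript length, scaled to the same total in each library) with spironolactone and 8507 to 11852 TPM with vehicle, and 6 keratocyte and stromal genes summed to 4125 to 4348 TPM and 4335 to 4370 TPM. Krt12, the defining keratin of corneal epithelium, was at 9.76 to 10.7 TPM with spironolactone and 7.23 to 10.9 TPM with vehicle, where Krt5, a keratin of its basal cells, was at 5857 to 7708 TPM and 3181 to 4867 TPM. Krt13, a keratin of the conjunctiva, was at 7759 to 10964 TPM with spironolactone and 4463 to 7284 TPM with vehicle, and 4 conjunctival genes summed to 11984 to 16355 TPM and 6801 to 10778 TPM. Photoreceptor transcripts of the retina, which is not part of the labelled tissue, were also present, and 2 libraries stood apart in photoreceptor or lens genes. Spironolactone replicate 3 had a summed level of 184 TPM for 5 photoreceptor genes, against 2607 and 3361 TPM in the other spironolactone libraries and 4081 to 4568 TPM with vehicle. Vehicle replicate 3 had 808 TPM over 6 lens genes, where the other 5 libraries had 9.67 to 68.3 TPM. Fat cell genes were near 0, at 0.11 to 0.27 TPM with spironolactone and 0.25 to 0.39 TPM with vehicle over 4 genes.

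The muscle fibre genes were low in every spironolactone library relative to every vehicle library when summed. The 40 genes together had 386, 367 and 590 TPM in spironolactone replicates 1, 2 and 3, against 1059, 2292 and 1906 TPM in vehicle replicates 1, 2 and 3. They took 0.0415%, 0.0385% and 0.0597% of all counts with spironolactone and 0.0971%, 0.207% and 0.172% with vehicle. The groups did not overlap, but vehicle replicate 1 lay closer to spironolactone replicate 3 than to either of the other vehicle libraries. The summed levels of the muscle list and the marker lists are plotted by library.

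**Figure D1:**
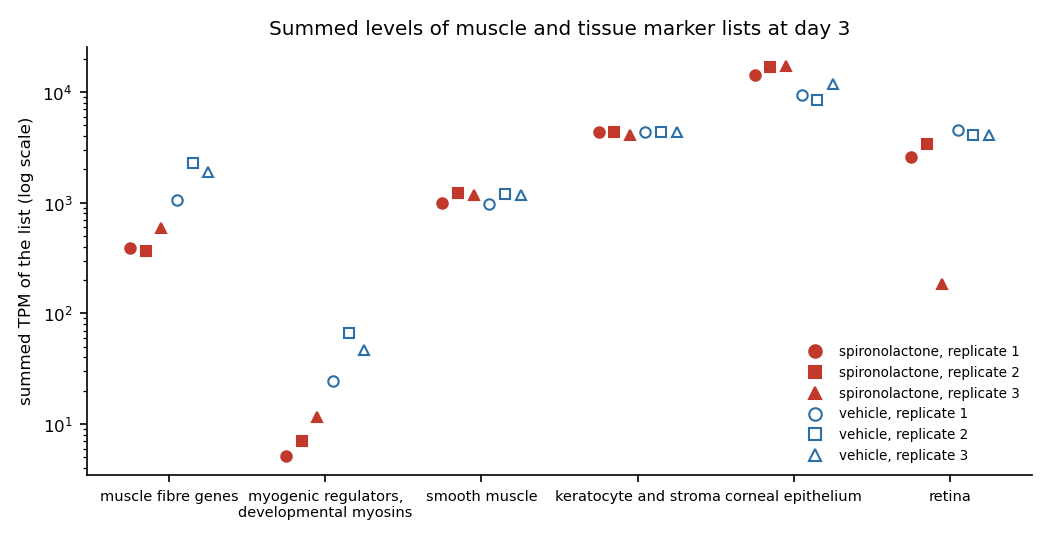
Summed TPM (log scale) of 6 gene lists in each day 3 library, with filled red symbols for spironolactone, open blue symbols for vehicle and a symbol shape for each replicate number. The muscle fibre genes lie at 367 to 590 TPM with spironolactone and 1059 to 2292 TPM with vehicle, while the smooth muscle list lies at 1001 to 1225 TPM and 974 to 1189 TPM.

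All 39 tested genes had negative fitted log2 fold changes of spironolactone over vehicle, from -2.59 to -0.25 with a median of -1.83, which is 3.56-fold lower. Over all 14762 genes tested the median was -0.01, with quartiles of -0.19 and 0.12, and 51.6% were negative. A fold change of at least 2-fold lower was fitted for 32 of the 39 (16 of them at least 4-fold), where 2.52% of all genes tested reached it. On normalised counts (CPM, counts scaled to a common library size with TMM factors) 35 of 39 had every spironolactone library below every vehicle library, against 16.1% of all genes tested. On TPM it was 36 of 39 against 23.1%. The exceptions on both scales were Myh7, Myh15 and Myom1, with Trim63 on CPM alone. Since the list was chosen on this contrast, nothing is read from these counts.

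Across all genes, edgeR's quasi-likelihood test with Benjamini-Hochberg adjustment called 0 of 14762 genes at an adjusted p of 0.05 (0%); 10.4% of them were lower and 12.2% higher at an unadjusted p under 0.05. DESeq2 called 493 of all genes tested lower (3.34%) and 851 higher, and limma-voom called 0 of 14762 genes. Calls are not counted for the 39 genes, since the list was chosen on the contrast these tests use. Single libraries moved the edgeR count over all genes: leaving out vehicle replicate 3 gave 781, leaving out vehicle replicate 1 gave 40, and leaving out spironolactone replicate 3 gave 2. Leaving out the replicates 3 of both treatments gave 1040. The median of the 39 genes was -2.02 in that last fit. The level in the libraries where these genes were low also passed the filter: 38 of the 39 reached its 0.439 CPM in all 3 spironolactone libraries, and Smpx did not.

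**Figure D2:**
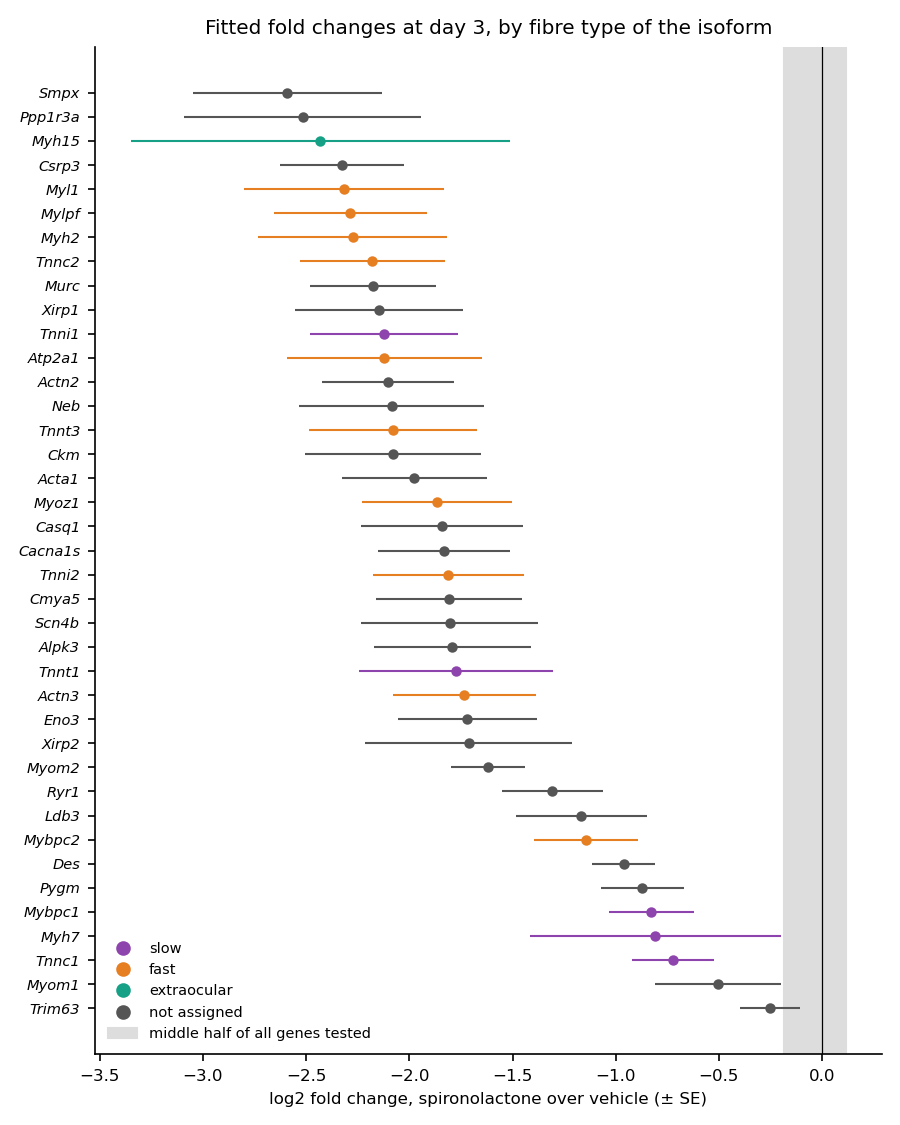
Fitted log2 fold change of spironolactone over vehicle at day 3 for each of the 39 tested muscle fibre genes, with bars for 1 SE (n = 3 libraries per group) and colours for the fibre type of the isoform. The grey band spans the quartiles of all 14762 genes tested (-0.19 to 0.12); the genes run from Smpx at -2.59 to Trim63 at -0.25.

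The upstream sequence of these genes was searched for motifs of muscle transcription factors. RefSeq promoters (build GRCr8) were matched for 34 of the 40 genes, and the 250 bases before the start were read on both strands. The MEF2 motif, bound by the MEF2 factors of muscle, was found in 3 of 34 (8.82%) against 0.572% of 27457 promoters of the same length. The CArG box, bound by serum response factor, was found in 2 of 34 (5.88%) against 1.501% of the 27457. The E-box CANNTG, the motif of myogenic factors and of many others, was found in 28 of 34 (82.4%) against 65.2%, and the TATA box letters TATAAA in 10 of 34 (29.4%) against 13.1%. Among the 34 promoters, the only overlap between these motifs was that of the MEF2 and TATAAA letters in Ppp1r3a. The 5 sequences below are those with a MEF2 motif or a CArG box, which is in capitals; each is written in the direction of its gene and ends at the base before its start. A match is a description of the letters and not of a bound site. Because the list was made of muscle genes, these shares cannot say why the genes differed between treatments.
Acta1, chr19:68784195-68784444, minus strand, with the CArG box beginning 94 bases before the start: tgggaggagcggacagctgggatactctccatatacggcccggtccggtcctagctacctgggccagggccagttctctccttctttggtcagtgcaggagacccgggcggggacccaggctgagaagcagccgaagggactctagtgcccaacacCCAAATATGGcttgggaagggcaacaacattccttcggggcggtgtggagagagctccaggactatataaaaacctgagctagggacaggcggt
Ldb3, chr16:9924680-9924929, minus strand, with the CArG box beginning 52 bases before the start: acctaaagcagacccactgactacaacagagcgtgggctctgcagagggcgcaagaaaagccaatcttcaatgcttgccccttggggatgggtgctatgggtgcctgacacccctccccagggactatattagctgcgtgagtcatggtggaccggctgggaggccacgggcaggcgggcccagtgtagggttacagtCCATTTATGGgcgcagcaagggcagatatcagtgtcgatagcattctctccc
Xirp2, chr3:72533936-72534185, plus strand, with the MEF2 motif beginning 74 bases before the start: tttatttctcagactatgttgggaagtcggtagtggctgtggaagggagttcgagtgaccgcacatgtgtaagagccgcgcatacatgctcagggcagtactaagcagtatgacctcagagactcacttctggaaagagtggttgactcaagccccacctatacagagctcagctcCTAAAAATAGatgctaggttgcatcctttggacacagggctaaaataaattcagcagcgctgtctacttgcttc
Ppp1r3a, chr4:43946237-43946486, minus strand, with the MEF2 motif beginning 63 bases before the start: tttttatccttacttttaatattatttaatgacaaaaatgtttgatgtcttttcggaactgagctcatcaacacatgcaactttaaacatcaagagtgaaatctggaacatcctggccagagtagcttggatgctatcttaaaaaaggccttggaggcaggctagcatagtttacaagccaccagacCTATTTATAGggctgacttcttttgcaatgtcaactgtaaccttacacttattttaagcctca
Smpx, chrX:41107138-41107387, minus strand, with the MEF2 motif beginning 101 bases before the start: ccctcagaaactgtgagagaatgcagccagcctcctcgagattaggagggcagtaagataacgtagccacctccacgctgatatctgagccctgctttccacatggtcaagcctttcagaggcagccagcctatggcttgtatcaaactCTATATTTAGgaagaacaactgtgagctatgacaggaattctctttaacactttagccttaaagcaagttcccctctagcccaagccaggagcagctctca

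Of the thin filament genes, skeletal actin and the fast troponins were about 4-fold lower, and the slow troponins ranged from under 2-fold to 4-fold lower. Acta1, the actin of skeletal muscle and a carrier of the CArG box printed above, had 51.3, 48.6 and 81.4 TPM with spironolactone and 155, 323 and 266 TPM with vehicle. Its fitted log2 fold change was -1.98 (SE 0.35), and spironolactone replicate 3 over vehicle replicate 1, the nearest libraries of different treatment, gave a ratio of 0.558 in CPM. Tnnc2, the fast troponin C that binds calcium, had 17.8, 17.04 and 25.6 TPM with spironolactone and 56.1, 126 and 104 TPM with vehicle (log2 fold change -2.18, SE 0.35). Tnni2, the fast inhibitory troponin, had 22.8, 26.7 and 38.0 TPM with spironolactone and 63.4, 145 and 119 TPM with vehicle. Tnnt3, the fast tropomyosin-binding troponin, had 26.5, 19.6 and 39.8 TPM with spironolactone and 73.0, 159 and 147 TPM with vehicle. In each of these fast genes the 2 groups were apart and vehicle replicate 1 was the lowest vehicle library.

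The slow troponins did not share 1 pattern. Tnni1, the slow inhibitory troponin, had 2.26, 2.69 and 3.78 TPM with spironolactone and 8.79, 12.3 and 19.0 TPM with vehicle, and its log2 fold change of -2.12 (SE 0.36) lay among those of the fast genes. Tnnt1, the slow tropomyosin-binding troponin, had 3.96, 4.49 and 11.5 TPM with spironolactone and 15.1, 30.9 and 25.6 TPM with vehicle (-1.78, SE 0.47). Without spironolactone replicate 3, its highest spironolactone library, the log2 fold change of Tnnt1 was -2.41. Tnnc1, the troponin C of slow and cardiac muscle, had 9.29, 11.4 and 14.2 TPM with spironolactone and 18.9, 17.6 and 23.9 TPM with vehicle. Its groups did not overlap, but its log2 fold change of -0.72 (SE 0.20) was nearer to 0 than that of the other 5 troponins, and vehicle replicate 2, the highest vehicle library for most genes here, was its lowest. Neb encodes nebulin, which runs along the thin filament, and had 0.59 to 1.12 TPM with spironolactone and 2.00 to 5.30 TPM with vehicle (-2.09, SE 0.45).

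**Figure D3:**
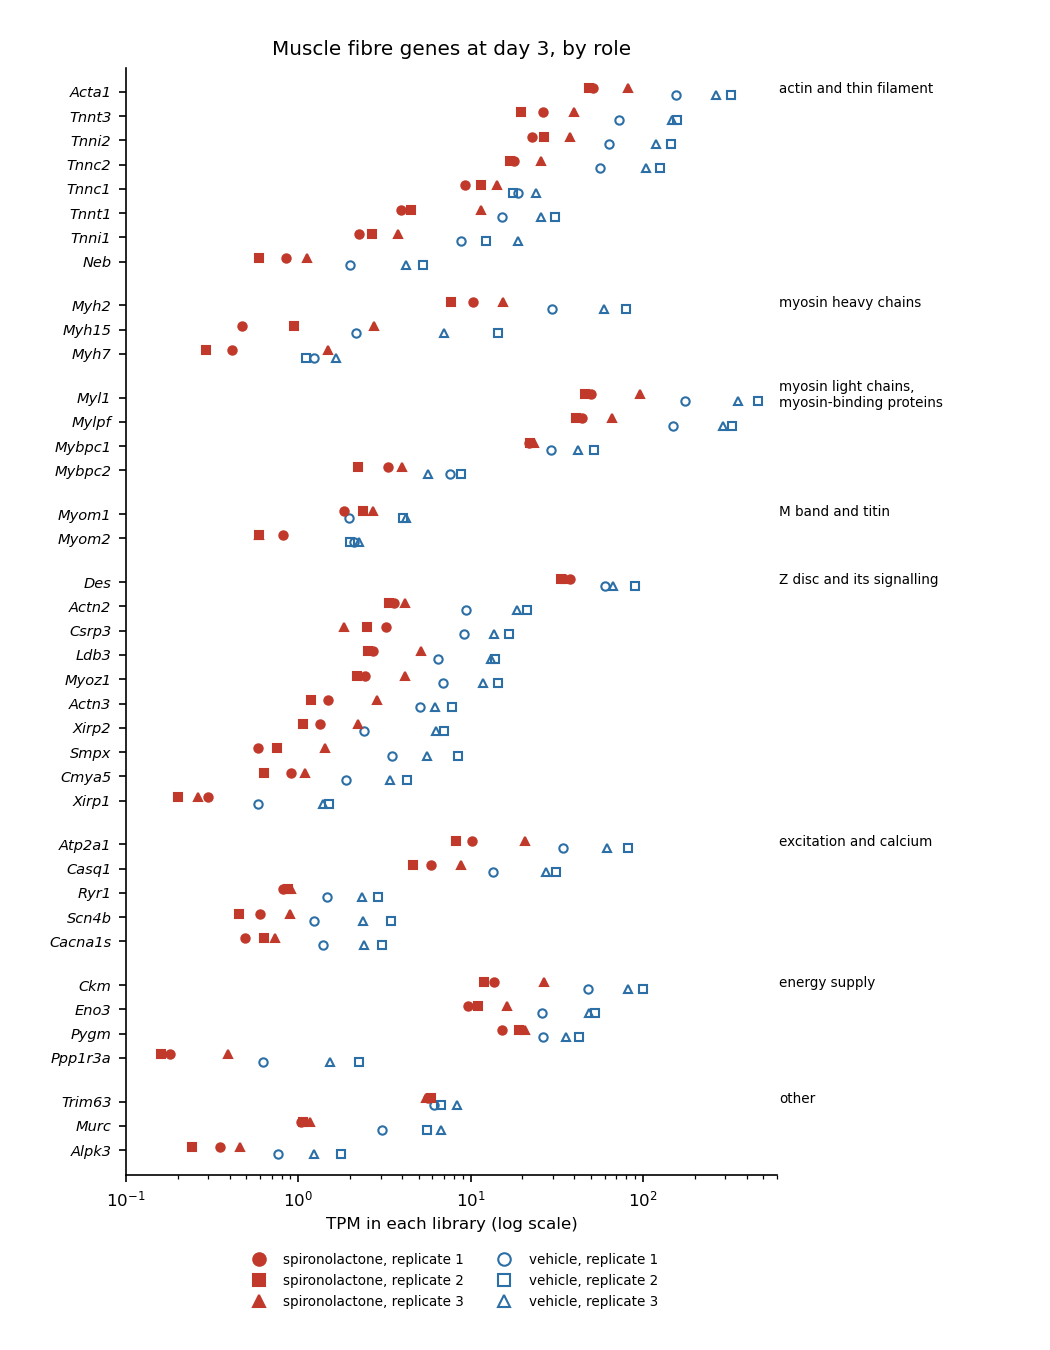
TPM (log scale) of the 39 muscle fibre genes with counts in each day 3 library, grouped by role, with filled red symbols for spironolactone drawn above open blue symbols for vehicle and a symbol shape for each replicate number. The red symbols lie left of the blue ones in 36 genes; they overlap in Myh7, Myh15 and Myom1.

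Of the 3 myosin heavy chains on the list with a value, the fast Myh2 made up most of the level. It was well apart between groups, while the slow Myh7 and the extraocular Myh15 overlapped. The developmental Myh3, outside the list, had 2.93, 4.78 and 8.61 TPM with spironolactone and 14.8, 47.9 and 29.5 TPM with vehicle. Myh2 had 10.3, 7.71 and 15.5 TPM with spironolactone and 29.6, 79.7 and 59.5 TPM with vehicle (-2.27 on the log2 scale, SE 0.46). Myh15 had 0.47, 0.95 and 2.75 TPM with spironolactone and 2.17, 14.4 and 7.03 TPM with vehicle, so that spironolactone replicate 3 lay above vehicle replicate 1, and its log2 fold change of -2.43 had the largest SE of the 39 genes, 0.92. Single libraries moved it, to -3.37 without spironolactone replicate 3 and to -1.66 without vehicle replicate 2. Myh7 had 0.41, 0.29 and 1.49 TPM with spironolactone and 1.23, 1.11 and 1.66 TPM with vehicle. Spironolactone replicate 3 lay within the vehicle range, and the log2 fold change of -0.81 (SE 0.61) was -1.89 without that library. The row named Myh2 joins 6 transcripts, and Myh3, Myh2, Myh1, Myh4, Myh8 and Myh13 lie next to each other on rat chromosome 10 in the RefSeq table. These genes have closely similar sequences, so reads may be shared among them and the level of Myh2 is uncertain.

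The myosin light chains were the most abundant genes of the list with actin. Myl1, which encodes fast alkali light chains, had 49.9, 46.3 and 96.4 TPM with spironolactone and 176, 464 and 355 TPM with vehicle (log2 fold change -2.32, SE 0.48). Mylpf, the fast regulatory light chain, had 44.6, 40.8 and 65.7 TPM with spironolactone and 149.8, 327 and 293 TPM with vehicle (-2.29, SE 0.37). Neither gene overlapped between groups, but both spread within the vehicle group. In CPM, vehicle replicate 2 over replicate 1 gave ratios of 2.67 for Myl1 and 2.20 for Mylpf. Spironolactone replicate 3 over vehicle replicate 1 gave 0.580 and 0.471. The myosin-binding proteins C stood closer together. Mybpc2, the fast form, had 3.30, 2.22 and 4.02 TPM with spironolactone and 7.57, 8.75 and 5.63 TPM with vehicle (-1.14, SE 0.25), with vehicle replicate 3 as its lowest vehicle library. Mybpc1, the slow form, had 21.9, 22.0 and 23.3 TPM with spironolactone and 29.2, 52.0 and 42.0 TPM with vehicle (-0.83, SE 0.20). Its 3 spironolactone libraries were nearly level, whereas those of Myl1 were not.

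The M band genes Myom1 and Myom2 encode proteins that tie myosin filaments together, and they differed in pattern. Myom2 had 0.81, 0.59 and 0.59 TPM with spironolactone and 2.10, 2.00 and 2.24 TPM with vehicle. The groups were wide apart and the vehicle libraries nearly level, with a log2 fold change of -1.62 (SE 0.18). Myom1 had 1.85, 2.36 and 2.70 TPM with spironolactone and 1.98, 4.04 and 4.19 TPM with vehicle (-0.50, SE 0.31), and vehicle replicate 1 lay inside the spironolactone range.

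The Z disc anchors the thin filaments, and its 10 tested genes ranged from -2.59 for Smpx to -0.96 for Des. Des, the intermediate filament of all muscle types, had 37.6, 33.5 and 35.8 TPM with spironolactone and 59.9, 89.9 and 67.3 TPM with vehicle (-0.96, SE 0.15). Smooth muscle cells also make Des, and the summed level of 11 smooth muscle genes overlapped, at 1001, 1225 and 1175 TPM with spironolactone and 974, 1189 and 1165 TPM with vehicle. Actn2, the alpha-actinin of skeletal and cardiac Z discs, had 3.58, 3.34 and 4.14 TPM with spironolactone and 9.46, 21.3 and 18.7 TPM with vehicle (-2.10, SE 0.32). Csrp3, the muscle LIM protein, had 3.21, 2.51 and 1.85 TPM with spironolactone and 9.21, 16.7 and 13.7 TPM with vehicle (-2.33, SE 0.30). In Csrp3 spironolactone replicate 3 was the lowest library of all 6, unlike in 34 of the 39 genes, where it was the highest of the spironolactone group. Ldb3, which encodes the Z disc protein cypher and has a CArG box in its promoter, had 2.73, 2.55 and 5.17 TPM with spironolactone and 6.51, 13.8 and 13.1 TPM with vehicle (-1.17, SE 0.32). The row named Ldb3 joins 5 transcripts, and its log2 fold change was -1.63 with effective-length offsets. The other 6 tested genes were the fast alpha-actinin Actn3, the calcineurin-binding Myoz1, the Xin repeat genes Xirp1 and Xirp2, the costameric Smpx and Cmya5. None of these 6 overlapped on TPM; they had 0.20 to 4.15 TPM with spironolactone and 0.58 to 14.4 TPM with vehicle, with log2 fold changes from -2.59 to -1.71. Xirp2, a carrier of the MEF2 motif, was the closest, at 2.23 TPM in the highest spironolactone library and 2.41 TPM in the lowest vehicle library. For Myot, a count of 0 allows up to 3 counts, which is 0.119 to 0.165 CPM, but Myh9, a myosin of most cells, was also listed at 0 in all 6 libraries, so a 0 in these files is no measure of absence. Myh9 was looked up after the values were seen.

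Genes of excitation and calcium release were lower by 2.48-fold to 4.35-fold. Atp2a1, the fast fibre pump that returns calcium to its store, had 10.1, 8.18 and 20.7 TPM with spironolactone and 34.2, 81.7 and 62.1 TPM with vehicle (-2.12, SE 0.47). Casq1, the calcium-binding protein of that store, had 5.92, 4.64 and 8.74 TPM with spironolactone and 13.5, 31.3 and 27.3 TPM with vehicle (-1.84, SE 0.39). Ryr1, the release channel, had 0.82, 0.87 and 0.91 TPM with spironolactone and 1.46, 2.90 and 2.35 TPM with vehicle (-1.31, SE 0.24). All 3 were apart between groups, with spironolactone libraries that were nearly level for Ryr1 and spread over more than 2-fold for Atp2a1. Scn4b, a sodium channel beta subunit, had 0.60, 0.45 and 0.89 TPM with spironolactone and 1.24, 3.43 and 2.37 TPM with vehicle. Cacna1s, the voltage sensor that opens the release channel, had 0.49 to 0.73 TPM with spironolactone and 1.40 to 3.08 TPM with vehicle (-1.83, SE 0.32).

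In energy supply, the muscle creatine kinase gene Ckm had 13.7, 11.9 and 26.6 TPM with spironolactone and 47.7, 100.3 and 82.0 TPM with vehicle (-2.08, SE 0.43). Eno3, the muscle enolase of glycolysis, had 9.72, 10.99 and 16.3 TPM with spironolactone and 25.8, 52.9 and 48.4 TPM with vehicle (-1.72, SE 0.34). Ppp1r3a, which targets a phosphatase to glycogen, had 0.18, 0.16 and 0.39 TPM with spironolactone and 0.62, 2.24 and 1.52 TPM with vehicle (-2.52, SE 0.57). Pygm, the muscle glycogen phosphorylase, differed less, with 15.1, 19.2 and 20.6 TPM with spironolactone and 26.4, 42.8 and 35.7 TPM with vehicle (-0.87, SE 0.20). The groups were apart in all 4 genes.

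The remaining 3 genes covered the range of the list. Murc, which encodes the muscle caveolar protein cavin-4, had 1.03, 1.07 and 1.17 TPM with spironolactone and 3.07, 5.62 and 6.72 TPM with vehicle (-2.18, SE 0.30). Alpk3, a muscle alpha-kinase, had 0.35, 0.24 and 0.46 TPM with spironolactone and 0.76, 1.78 and 1.24 TPM with vehicle (-1.79, SE 0.38). Trim63, the ubiquitin ligase MuRF1 of muscle protein breakdown, had 5.69, 5.92 and 5.53 TPM with spironolactone and 6.16, 6.74 and 8.37 TPM with vehicle. Its log2 fold change of -0.25 (SE 0.14) was the nearest to 0 of the 39 genes and was -0.09 without vehicle replicate 3. Fbxo32, another ubiquitin ligase of muscle protein breakdown and no member of the list, had 21.8 to 26.9 TPM with spironolactone and 16.9 to 22.8 TPM with vehicle (log2 fold change 0.33, SE 0.13, adjusted p = 0.209 in edgeR). It was picked out after its values were seen.

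The muscle genes also spread within each treatment group, and mostly together. Of the 39 genes, 35 had their lowest vehicle TPM in vehicle replicate 1 and 32 their highest in vehicle replicate 2. In CPM the median ratio of vehicle replicate 2 over replicate 1 was 2.11 (quartiles 1.82 and 2.39), where all genes had a median ratio of 1.00 (quartiles 0.938 and 1.08). Vehicle replicate 3 over replicate 1 gave 1.83 (quartiles 1.59 and 2.07). Among the spironolactone libraries replicate 3 was highest in 34 genes, with a median ratio over replicate 2 of 1.76 (quartiles 1.22 and 2.07), and replicates 1 and 2 differed little (median ratio 1.11). The spread inside the vehicle group was thus larger than the gap between the nearest libraries of different treatment: spironolactone replicate 3 over vehicle replicate 1 had a median ratio of 0.633 (quartiles 0.552 and 0.774).

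Some genes did not follow the others within a group. In vehicle replicate 2 over replicate 1, 5 genes had a ratio under 1.2: Myh7 at 0.905, Tnnc1 at 0.938, Myom2 at 0.959, Trim63 at 1.10 and Mybpc2 at 1.16. Myh15 had the highest ratio there, 6.65, and a ratio of 2.94 in spironolactone replicate 3 over replicate 2. In spironolactone replicate 3 over replicate 2, Csrp3 (0.754) and Trim63 (0.951) were the 2 genes with a ratio under 1, and Myh7 had the highest ratio, 5.23. These ratios come from single libraries and have no replicate check.

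**Figure D4:**
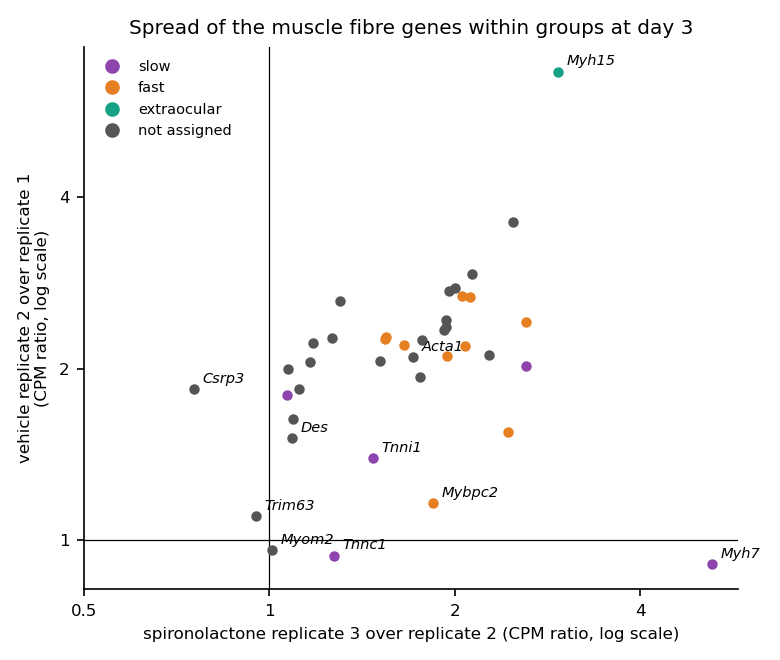
Ratio of CPM between 2 spironolactone libraries (horizontal, replicate 3 over replicate 2) and between 2 vehicle libraries (vertical, replicate 2 over replicate 1), both on log scales, for the 39 tested muscle fibre genes coloured by fibre type. Most genes lie above 1 on both axes; Myh15 is highest at 6.65 vertically, and Myh7 lies at 5.23 horizontally and 0.905 vertically.

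Setting the fibre types apart, the 10 fast genes had a median log2 fold change of -2.10 (from -2.32 to -1.14), the 5 slow genes -0.83 (from -2.12 to -0.72) and the extraocular Myh15, a single gene with the limits given above, -2.43. The 5 slow genes were split: Tnni1 and Tnnt1 lay among the fast genes, and Mybpc1, Myh7 and Tnnc1 lay between -0.83 and -0.72. Within isoform pairs, the share of TPM from the slow member was compared by library. Tnnc1 made up 34.3%, 40.2% and 35.6% of both troponin C genes with spironolactone and 25.2%, 12.2% and 18.7% with vehicle, a mean of 36.7% ± 3.06 and 18.7% ± 6.48 (SD, n = 3 each), with no overlap. The other pairs overlapped. Tnni1 made up 9.07% ± 0.0739 of its pair with spironolactone and 11.2% ± 3.11 with vehicle, Tnnt1 17.99% ± 4.68 and 16.1% ± 1.16, and Mybpc1 87.7% ± 2.87 and 84.4% ± 4.51 (SD, n = 3 each). The myosin shares were taken over Myh2, Myh7 and Myh15 only, without the developmental Myh3 and Myh8 or the Myh1, Myh4 and Myh13 not analysed. Myh2 made up 85.6% ± 6.85 of these 3 with spironolactone and 86.9% ± 3.00 with vehicle, and Myh7 4.82% ± 2.38 and 2.44% ± 1.28. Myh15 made up 9.59% ± 4.96 and 10.7% ± 4.28 (SD, n = 3 each). The mean share of the slow gene was thus higher with spironolactone for Tnnc1, Tnnt1, Mybpc1 and Myh7 and lower for Tnni1. The libraries of the 2 treatments were apart for Tnnc1 alone. Of single genes, 16.1% of all tested lay wholly below and 16% wholly above the vehicle libraries on CPM. One share apart among those compared is therefore a description only.

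**Figure D5:**
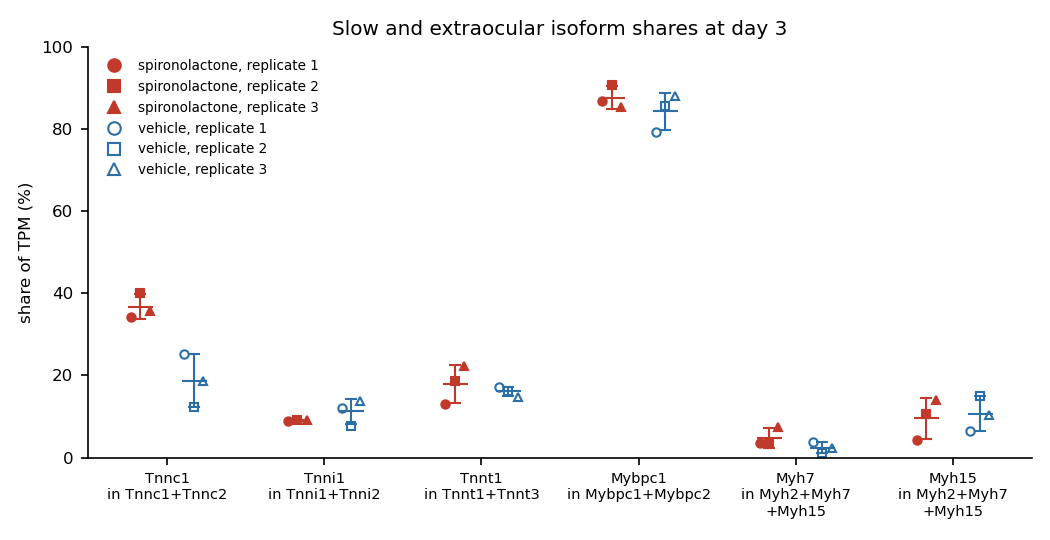
Share of TPM (%) from the slow or extraocular gene within its isoform family in each day 3 library, spironolactone in filled red left of vehicle in open blue, with horizontal bars for the mean and whiskers for 1 SD (n = 3 each). The Tnnc1 share lies at 34.3% to 40.2% with spironolactone and 12.2% to 25.2% with vehicle, and the other 5 shares overlap.

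Other genes of the muscle fibre, from lists that were also written with earlier results known, were read from the same fit. Calls and p-values for these companion lists, here and below, come from the same libraries and the same contrast. They are therefore a description and not a separate test of the muscle result. In edgeR 0 of the 74 genes tested on 6 companion lists passed an adjusted p of 0.05. At an unadjusted p under 0.05, 40 were lower and 1 was higher, against 10.4% and 12.2% of all genes tested. DESeq2 called 33 lower, against 3.34% of all genes tested. Of 43 further mature fibre genes, edgeR called 0 and DESeq2 24 lower, with a median log2 fold change of -1.55. Cacng1, a subunit of the muscle calcium channel, averaged 0.753 ± 0.121 TPM with spironolactone and 3.80 ± 1.13 TPM with vehicle (SD, n = 3 each; -2.27, SE 0.32), and Cox6a2, a muscle subunit of cytochrome c oxidase, had 3.88, 4.43 and 7.00 TPM with spironolactone and 16.4, 34.7 and 28.7 TPM with vehicle (-2.30, SE 0.37). Each had an adjusted p of 0.0649 in edgeR. The tropomyosins, picked out after their values were seen, showed no such difference: the log2 fold changes of Tpm1, Tpm2 and Tpm3 were 0.01 (SE 0.058), -0.05 (SE 0.096) and 0.02 (SE 0.067). These genes are also used by cells other than muscle.

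On the 6 tested slow fibre genes outside the list the median was -0.89. Of these, edgeR called 0 and DESeq2 called 2 lower, against 3.34% of all genes tested. Casq2, the slow and cardiac calsequestrin, had 2.13, 2.45 and 3.27 TPM with spironolactone and 4.61, 8.94 and 10.3 TPM with vehicle (-1.54, SE 0.33, adjusted p = 0.0768 in edgeR). Myoz2, a slow Z disc gene, had 1.57, 1.08 and 3.20 TPM with spironolactone and 3.73, 12.3 and 8.46 TPM with vehicle (-2.01, SE 0.56, adjusted p = 0.115 in edgeR). Of 6 tested genes of the neuromuscular junction edgeR called 0 and DESeq2 1, with a median of -0.61. Its acetylcholine receptor subunit Chrna1 was fitted at -2.82 on the log2 scale (SE 0.45, adjusted p = 0.0649 in edgeR). The subunit Chrnd was fitted at -2.39 (SE 0.43, adjusted p = 0.0657 in edgeR). With spironolactone, Chrna1 had 8, 11 and 2 counts and Chrnd 4, 5 and 7. They averaged 0.331 and 0.259 CPM there, under the filter's 0.439 CPM, and passed it through the vehicle libraries. Their values are a description only.

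The myogenic regulators and developmental myosins had a median of -2.57 over 5 tested genes. Of these, edgeR called 0 and DESeq2 called 5 lower, against 3.34% of all genes tested. The summed level of the 8 genes found was 5.19, 7.06 and 11.6 TPM with spironolactone and 24.4, 66.7 and 47.1 TPM with vehicle, and the fitted log2 difference was -2.57 (SE 0.24) for Myog, a factor of muscle differentiation, and -3.03 (SE 0.42) for the fusion gene Tmem8c (myomaker). Both had an adjusted p of 0.0649 in edgeR. Tmem8c had 5, 7 and 3 counts with spironolactone, an average of 0.238 CPM. It passed the filter of 0.439 CPM only through the vehicle libraries, so its values are a description only. Of the 3 tested genes on the cardiac list edgeR called 0 and DESeq2 1 lower. Actc1, an actin of heart and of developing skeletal muscle, had 8.46, 8.63 and 9.22 TPM with spironolactone and 37.9, 59.0 and 93.9 TPM with vehicle (-2.80, SE 0.36, adjusted p = 0.0649 in edgeR), while Nppb had -0.48 (SE 0.60, adjusted p = 0.663).

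Smooth muscle genes did not share the pattern. Their median log2 fold change was 0.13 over 11 tested genes, with 0 calls in edgeR or DESeq2. At an unadjusted p under 0.05 in edgeR 1 was lower, where 10.4% of all genes tested were. Actg2, an actin of visceral smooth muscle, had -0.30 (SE 0.12, adjusted p = 0.208 in edgeR) and Smtn, a smooth muscle cytoskeletal gene, 0.15 (SE 0.071, adjusted p = 0.259). Markers of other tissues moved beside the muscle genes in the same libraries. The 8 corneal epithelial genes had a median log2 fold change of 0.47, the 4 conjunctival genes 0.60, the 6 keratocyte and stromal genes -0.02, the 5 photoreceptor genes -0.98, the 5 tested lens genes -3.86 with vehicle replicate 3 far above the rest, the 6 blood endothelial genes -0.46, the 4 macrophage genes -0.26 and the 5 Schwann cell genes 0.11. On CPM, 5 of 8 corneal epithelial and 3 of 4 conjunctival genes lay above the vehicle range in every spironolactone library, where 16% of all genes tested did. Below that range lay 5 of 5 photoreceptor and 4 of 6 endothelial genes, against 16.1%. Genes of 1 tissue can vary together, so these are not separate observations. The photoreceptor genes summed to 184 TPM in spironolactone replicate 3, against 2607 and 3361 TPM in the other spironolactone libraries. The part of these tissues in the muscle result was not tested. Spironolactone replicate 3, lowest in photoreceptor genes, was the highest spironolactone library in summed muscle genes.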

How the data were processed

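Per the file headers, the deposited day 3 tables give the authors' expected counts and TPM per gene, under the column names of RSEM gene results. The tools in the submitters' processing notes are RSEM 1.2.28, STAR 2.5.3a, edgeR 3.28.0, DESeq2 1.26.0, Picard, DRAGEN, fastp and FastQC, and the builds Rnor_6.0 and rn6; their roles are not stated. Use of strand in counting is not given in the sources, and overlapping and antisense genes may share reads. Effective lengths in the deposited files served 1 alternative.

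Members and lists were chosen with earlier results of these data known. A row that names no gene, with 0.12% to 0.181% of counts, was left out. Expected counts were rounded, filtered with edgeR's filterByExpr (minimum count 10), scaled by TMM and fitted with edgeR 4.0.16 quasi-likelihood tests (robust) in R 4.3.3 on the 6 day 3 libraries, with Benjamini-Hochberg adjustment at 0.05. SE is the size of the log2 fold change over the root of F. DESeq2 1.42.0 and limma-voom (limma 3.58.1) were alternatives; DESeq2 gave no adjusted p for 864 genes. Levels are deposited TPM; the median gene differed by -0.07 in log2 TPM and by -0.01 in log2 CPM (spironolactone minus vehicle). Intervals and limits from counts cover counting error only. Within each role, the up to 4 genes with the highest mean TPM, and all troponins and myosin heavy chains, are given per library. The 2 genes with the smallest p of each companion list are named, some with levels and some with the fold change alone.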

Additional observations from a re-analysis of the deposited data

How the results depend on the processing

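The median log2 fold change of the muscle fibre genes kept its sign in all 17 alternatives, from -2.16 to -1.42, and moved by less than the 0.484 between libraries of a group; it was lowest without spironolactone replicate 3 and nearest to 0 on log2(TPM + 1), which shrinks low genes. All 39 genes stayed negative in each of them. The count of genes called over the whole table was 1344 with DESeq2, 148 with no filter, 1040 without the replicates 3 of both treatments and 0 to 781 with 1 library left out; it stayed at 0 with limma-voom, RLE factors, a filter of 1 CPM in 3 libraries and effective-length offsets. The companion lists were written with earlier results known, so the count over them is a description only. That count was 33 with DESeq2, 10 with no filter, 15 without both replicates 3 and 0 to 13 with 1 library left out. The cause of these moves was not tested. Differences between treatments in the shares within isoform families moved by less than 1 SD of the libraries, pooled over both treatments, with 14.8 to 21.3 points for Tnnc1 and 1.01 to 3.46 points for Myh7, but the sign of the difference in the Myh2, Myh15 and Tnnt1 shares turned in some fits with 1 library left out. Whether the replicate numbers pair the libraries could not be settled with so few libraries. The deviations of same-numbered libraries correlated at 0.0898, -0.0845 and 0.0486 across genes. Of the 3 spironolactone libraries, 2 correlated best with their own number. With the replicate block the count stayed at 0 and the median was -1.80. Day 7 alternatives were not run, since no day 7 gene could be named.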
